A study of Mus musculus with 6 samples.

Results

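The miR-34 and miR-449 family was followed through a small RNA sequencing experiment on neural stem cells, or NSCs, which divide and give rise to neurons and glia. Its members were chosen by name, as the rows of the deposited table for both arms of miR-34a, miR-34b and miR-34c and for miR-449a-5p. All 7 were found among the 1522 mature miRNAs of the table, and all 7 were among the 649 miRNAs that passed the filter on low values. Hippocampal cells of male mice of the C57BL/6J strain were taken on postnatal day 3, with 3 libraries in each of 2 groups. In the exposed group, called GDE here and IUGR in the library titles, the pregnant dams had received dexamethasone, a synthetic glucocorticoid, intraperitoneally at 1 mg/kg per day on embryonic days E14.5 to E18.5. The Control group, titled Normal, had saline on the same days. The libraries of a group came from independent litters, per the design text. Values are RPM, the sequenced tags of a miRNA scaled to the depth of its library, and 1 tag was worth 0.0807 to 0.0851 RPM. The table holds 2927136 to 3343808 tags of each library, out of a depth of 11751000 to 12385000.

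Mature miRNAs guide the Argonaute protein to messenger RNAs, and the seed near their 5′ end does most of the target choice. miR-34a is known as a direct transcriptional target of p53 and as a restraint on the cell cycle, and it is among the abundant miRNAs of the brain. miR-34b and miR-34c are made from 1 shared transcript and, with the miR-449 miRNAs, are known for their role in multiciliated cells, which in the brain include the ependyma and the choroid plexus. Each hairpin gives a 5p arm and a 3p arm, and usually 1 of these is kept while the other is degraded.

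The family is known for a shared seed, so the mature sequences are shown first. Sequences are from RefSeq (GRCm38.p6), written 5′ to 3′ with the seed, bases 2 to 8, in capitals. Mature sequences were matched for 6 of the 7 members, all but miR-34c-5p, which had no mature entry in the reference table.
miR-34a-5p: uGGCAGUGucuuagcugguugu
miR-34b-5p: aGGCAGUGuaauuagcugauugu
miR-449a-5p: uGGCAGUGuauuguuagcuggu
miR-34a-3p: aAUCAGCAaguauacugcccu
miR-34b-3p: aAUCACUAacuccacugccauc
miR-34c-3p: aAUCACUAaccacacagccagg

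The 5p arms shown had the seed GGCAGUG. It was found in 4 of the 1679 mature miRNA names of the reference table (0.238%), and the one not listed above was miR-449c-5p. This count leaves out miR-34c-5p, whose seed could not be read from that reference. miR-34a-5p shared bases 2 to 9 with miR-34b-5p and with miR-449a-5p, and over their whole length the edit distance was 4 and 6 bases. The 3p arms fell into different seeds. miR-34b-3p and miR-34c-3p had the seed AUCACUA, and no other mature miRNA of the reference table had it. They were identical through base 10 and had an edit distance of 5. miR-34a-3p had the seed AUCAGCA, which no other name carried. None of the 7 members carried the values of another row of the table.

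The members come from different chromosomes. Mir34a lies at chr4:150068454-150068555 on the plus strand (GRCm38), where its last 17 bases overlap the exon of Gm37795, an unconfirmed transcript on the same strand. Mir34b at chr9:51103562-51103645 and Mir34c at chr9:51103034-51103110 lie on the minus strand, 451 bases apart. Both lie within the span of Btg4, which runs on the opposite strand, and overlap none of its exons. Mir449a at chr13:113037534-113037624 lies on the plus strand in an intron of Cdc20b, a gene of multiciliated cells, and Mir449c lies 1442 bases before it in the same gene.

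The 7 members together held 3.77% to 3.95% of all RPM of the table. Their levels spread over more than 3 orders of magnitude, and most of the total was miR-34a-5p. By the mean over 6 libraries the order was mmu-miR-34a-5p (7808 RPM), mmu-miR-34b-3p (775 RPM), mmu-miR-34c-5p (703 RPM), mmu-miR-34c-3p (364 RPM), mmu-miR-34b-5p (181 RPM), mmu-miR-449a-5p (152 RPM) and mmu-miR-34a-3p (5.46 RPM). The species prefix mmu is left out from here on. Most neighbours in this order kept their places in all 6 libraries. The exceptions were miR-34b-3p and miR-34c-5p, in the given order in 5 of 6 libraries with a ratio of 0.877 to 1.40, and miR-34b-5p and miR-449a-5p, also in 5 of 6, with a ratio of 0.609 to 2.60. Levels of different miRNAs are compared per molecule, since the sequences above had 21 to 23 bases, and the ease of adapter ligation can differ between them.

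**Figure D1:**
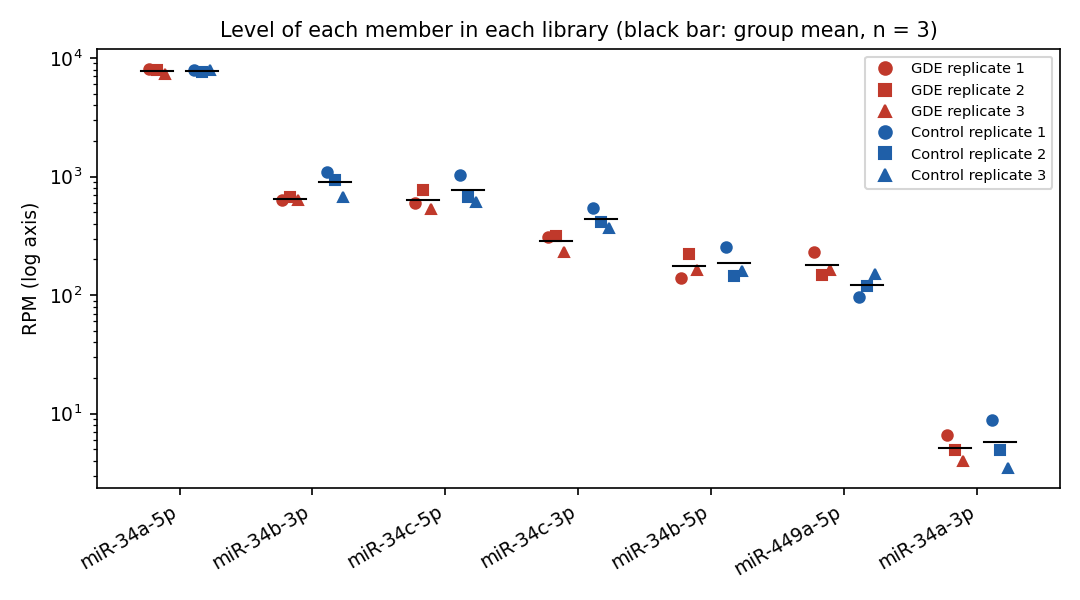
Level of each member in RPM (log axis) in each of the 6 libraries, with GDE in red, Control in blue and a black bar at the group mean (n = 3). miR-34a-5p lies near 7808 RPM in both groups, and the 3p arms of miR-34b and miR-34c are the members whose GDE points all lie below the Control points.

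Of the summed RPM of the 5p arms of miR-34a, miR-34b, miR-34c, miR-449a and miR-449c, miR-34a-5p made up 85.2% to 89.6% in every library. miR-34c-5p made up 6.54% to 11.1%, miR-34b-5p 1.55% to 2.71% and miR-449a-5p 1.04% to 2.55%. miR-449c-5p was close to the limit of detection, with 1 to 7 tags per library (0.085 to 0.565 RPM), while a count of 0 would allow up to 3 tags, or about 0.25 RPM.

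Of the 7 members, 0 differed between the groups at an adjusted p under 0.05 in limma, with the adjustment over all tested miRNAs. Of all 649 tested miRNAs, 2 did (0.308%). At an unadjusted p under 0.05 there were 2 members, miR-34b-3p and miR-34c-3p, against 8.63% of all tested miRNAs. Both were lower in GDE, as were 4.62% of all. No member was higher at that p in this fit, against 4.01% of all. edgeR's quasi-likelihood test, DESeq2 and limma-voom, run on tags recovered from the RPM, also called 0 members, with 2, 3 and 1 members at an unadjusted p under 0.05. In RPM, miR-34b-3p and miR-34c-3p were the only members whose groups did not overlap, against 14.6% of all tested miRNAs. In the direction of both, lower in GDE, it was 10% of all. No member was higher without overlap, while 4.62% of all were. Comparing GDE with Control, the log2 fold was negative for 6 of the 7 members with a median of -0.08, beside 61.2% and a median of -0.07 over all tested miRNAs. With TMM scaling, which assumes that most miRNAs do not change, 3 of 7 were negative.

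miR-34a-5p, the p53-linked member, had nearly the same level in all libraries. The GDE libraries held 8051, 7993 and 7360 RPM, and the Control libraries 7940, 7646 and 7857 RPM. The groups overlapped, and the highest library was only 1.09 times the lowest. The means were 7801 ± 383 RPM in GDE and 7814 ± 152 RPM in Control (SD, n = 3 each), with a log2 fold of 0.00 by rounding and a 95% interval from -0.14 to 0.13 (limma, adjusted p = 0.995). Its rank in the table was between 7 and 11.

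This closeness has to be read beside the spread at that level. On the log2 scale, the median of the within-group SD was 0.05 over the 18 miRNAs above 5000 RPM. It was 0.19 over the 34 of 1000 to 5000 RPM and 0.26 over the 110 of 100 to 1000 RPM. For miR-34a-5p this SD was 0.05, and for the other members it lay between 0.26 and 0.46. The most abundant row of the table, miR-9b-3p, had between 111884 and 112346 tags in every library, and miR-34a-5p had 89260 to 96439. Whether something held the top values together was not tested, so the narrow interval of miR-34a-5p does not show that its level in the cells was equal. The same holds for its share of the family and for each ratio of miR-34a-5p to another arm, which rest on these values.

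**Figure D2:**
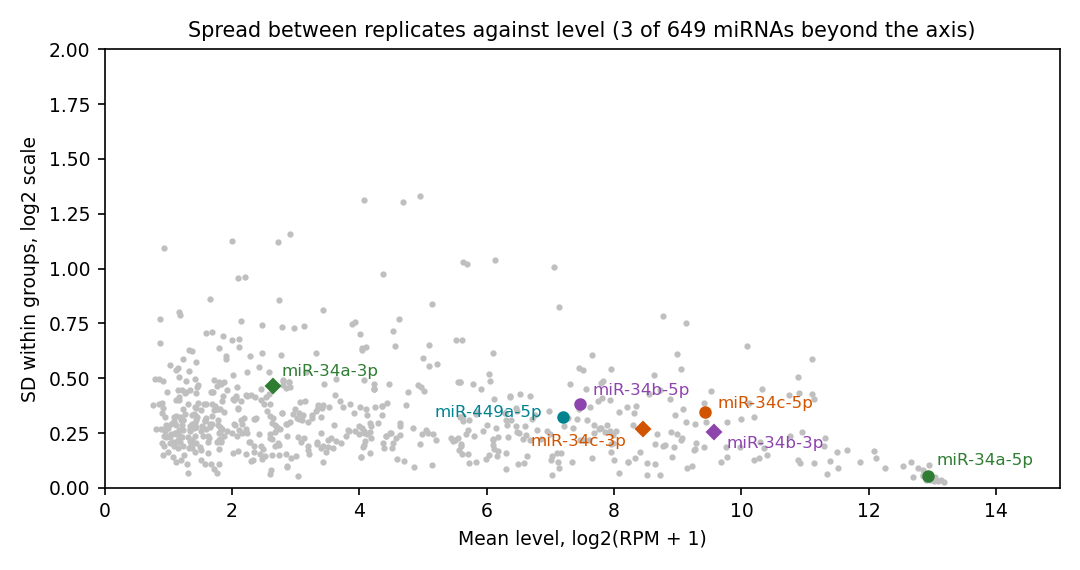
Within-group SD of log2(RPM + 1) against the mean log2 level, with 1 point per tested miRNA, members in colour, circles for 5p arms and diamonds for 3p arms. The points narrow toward 0 at the right end, where miR-34a-5p lies at an SD of 0.05, while the other members lie within the cloud.

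miR-34a-3p, the minor arm of the same hairpin, was present at a few RPM. It stood at 6.60, 4.91 and 3.96 RPM in GDE and at 8.89, 4.93 and 3.49 RPM in Control, from 41 to 107 tags. The Control libraries held both the highest and the lowest value. The log2 fold was -0.08 (SE 0.32; limma, adjusted p = 0.984), and the 95% interval reached from -0.82 to 0.66.

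The 3p arms of the miR-34b and miR-34c transcript had the largest negative differences of the family. miR-34c-3p was at 311, 313 and 232 RPM in GDE and at 547, 413 and 370 RPM in Control. All GDE libraries lay below all Control libraries. The means were 286 ± 46.2 and 443 ± 92.2 RPM (SD, n = 3 each), and the log2 fold was -0.63 (SE 0.21), with a 95% interval from -1.11 to -0.14. It did not pass the threshold (adjusted p = 0.551 in limma, with 0.168 to 0.822 under the alternatives), and p was 0.1 in an exact permutation test (two-sided), which cannot go lower with 3 libraries per group.

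miR-34b-3p, the most abundant product of the pair, was at 638, 673 and 631 RPM in GDE and at 1099, 936 and 675 RPM in Control. The GDE libraries lay close together, and the lowest Control library, replicate 3, was only just above the highest of them. The means were 647 ± 22.6 and 903 ± 214 RPM (SD, n = 3 each). The log2 fold was -0.45 (SE 0.19) with a 95% interval from -0.88 to -0.02 (adjusted p = 0.561 in limma, with 0.312 to 0.822 under the alternatives). The exact permutation p was again 0.1. Without Control replicate 1 the log2 fold was -0.30. Both the lack of overlap and the unadjusted p of miR-34b-3p depended on the scaling. With each library scaled to the same sum, GDE replicate 3 lay above Control replicate 3, and the unadjusted p was 0.052 in limma. With TMM scaling the unadjusted p was 0.054 in limma, against 0.042 in the main limma fit.

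The 5p arms of miR-34b and miR-34c overlapped between the groups. miR-34c-5p was at 603, 767 and 538 RPM in GDE and at 1034, 668 and 605 RPM in Control. Control replicate 1 was the highest library, and the others lay in 1 range. The log2 fold was -0.25 (SE 0.23; limma, adjusted p = 0.766), and without Control replicate 1 it was -0.02. miR-34b-5p was at 140, 222 and 164 RPM in GDE and at 253, 144 and 161 RPM in Control. Its log2 fold was -0.07 (SE 0.28; limma, adjusted p = 0.984), and it was 0.18 without Control replicate 1. The 95% intervals, from -0.78 to 0.29 for miR-34c-5p and from -0.71 to 0.57 for miR-34b-5p, also take in the values found for the 3p arms.

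The 4 arms of miR-34b and miR-34c were highest in Control replicate 1, without exception. Summed, they came to 1693, 1975 and 1565 RPM in GDE and to 2932, 2161 and 1810 RPM in Control, and the groups overlapped. The log2 difference of the group means was -0.38 (exact two-sided permutation p = 0.2), and it was -0.19 without Control replicate 1. In that library the RPM of all rows also summed to the highest value, by 0.11 on the log2 scale above the mean of 6 libraries, against 0.52 to 0.64 for these 4 arms.

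miR-449a-5p, from the other cilia-linked locus, lay on the opposite side. It was at 230, 148 and 164 RPM in GDE and at 97.3, 120 and 150 RPM in Control. The groups overlapped by 1 pair of libraries, as GDE replicate 2 was just under Control replicate 3. The means were 181 ± 43.6 and 123 ± 26.4 RPM (SD, n = 3 each). The log2 fold was 0.55 (SE 0.25) with a 95% interval from -0.03 to 1.14, and it did not pass the threshold (adjusted p = 0.561 in limma, with 0.359 to 0.822 under the alternatives, and exact permutation p = 0.2). It was 0.37 without GDE replicate 1 and 0.40 without Control replicate 1. Control replicate 1, the highest library for the 4 arms of miR-34b and miR-34c, was the lowest for miR-449a-5p.

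**Figure D3:**
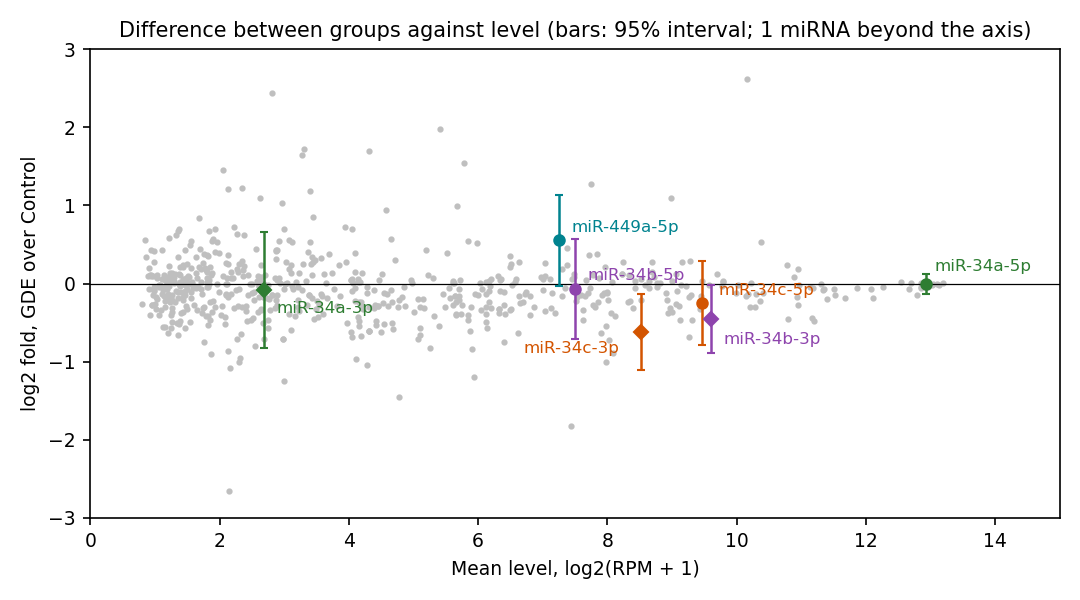
log2 fold of GDE over Control against the mean level, log2(RPM + 1), with other tested miRNAs in grey, members in colour (circles for 5p arms, diamonds for 3p arms) and bars for the limma 95% interval. The intervals of miR-34b-3p and miR-34c-3p lie below 0, that of miR-449a-5p reaches from -0.03 to 1.14, and that of miR-34a-5p is the narrowest.

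The loci were then set against each other within each library, where the scaling to depth cancels. There were 3 such ratios, of which 2 were chosen with the values known, and p was adjusted over 4 tests, the summed arms above being the other. miR-34a-5p was 10.8, 8.08 and 10.5 times the sum of miR-34b-5p and miR-34c-5p in GDE and 6.17, 9.42 and 10.3 times in Control. The groups overlapped, with Control replicate 1 the lowest. The mean log2 ratio was 3.28 ± 0.23 in GDE and 3.07 ± 0.39 in Control (SD, n = 3 each; exact two-sided permutation p = 0.5, Benjamini-Hochberg adjusted p = 0.5). The difference was 0.21, and it was -0.02 without Control replicate 1. It was 0.13 without GDE replicate 1, 0.34 without GDE replicate 2 and 0.35 without Control replicate 3.

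The ratio of miR-449a-5p to the same sum varied the most between libraries. It was 0.310, 0.150 and 0.233 in GDE and 0.0756, 0.148 and 0.196 in Control. The groups overlapped here too. The mean log2 ratio was -2.17 ± 0.53 in GDE and -2.93 ± 0.70 in Control (SD, n = 3 each), a difference of 0.76 (exact permutation p = 0.2, adjusted p = 0.267). It was 0.38 without Control replicate 1. Against miR-34a-5p, miR-449a-5p had a log2 ratio of -5.45 ± 0.31 in GDE and -6.01 ± 0.32 in Control (SD, n = 3 each), a difference of 0.56 with overlapping groups (exact permutation p = 0.2, adjusted p = 0.267).

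The hairpins differed in which arm was kept, and 2 of them are shown with their mature arms in capitals (RefSeq, GRCm38.p6, 5′ to 3′), since in the first the 5p arm dominates and in the second the 3p arm.
Mir34a: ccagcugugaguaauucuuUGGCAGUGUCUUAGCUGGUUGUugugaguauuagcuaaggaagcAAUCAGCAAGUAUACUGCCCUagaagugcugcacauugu
Mir34b: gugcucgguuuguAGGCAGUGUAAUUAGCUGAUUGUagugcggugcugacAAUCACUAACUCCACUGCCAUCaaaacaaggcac

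For miR-34a the 5p arm was 893 to 2252 times the 3p arm. Of the 155 hairpins with both arms tested, miR-34a and miR-23a were the most one-sided by their mean log2 ratios. Hairpins with an arm below the filter, such as let-7b and let-7g, are left out of this. For miR-23a it was the 3p arm that was kept. Its log2 ratio of 5p over 3p, with 1 RPM added to each arm, ran from -10.50 to -9.54, against 9.65 to 10.77 for miR-34a. These ranges overlap in size, and the added 1 RPM shrinks the ratios of low arms, so the hairpins cannot be ranked. For miR-34b the 3p arm was the more abundant, at 3.03 to 6.51 times the 5p arm, as the 3p arm was in 57 of the 155 hairpins (36.8%). For miR-34c the 5p arm was 1.62 to 2.45 times the 3p arm. So the pair from 1 transcript had opposite major arms in every library. miR-34c-5p was 3.28 to 4.65 times miR-34b-5p, and miR-34b-3p was 1.82 to 2.72 times miR-34c-3p.

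The arm ratio of miR-34c was the one arm ratio of the 3 whose groups did not overlap. The log2 ratio of 5p over 3p was 0.95, 1.29 and 1.21 in GDE and 0.92, 0.69 and 0.71 in Control. GDE replicate 1 was just above Control replicate 1. The difference was 0.38 (SE 0.21) with a 95% interval from -0.12 to 0.87, and it did not pass the threshold (limma over 155 hairpins, adjusted p = 0.74). Of all hairpins 5.81% had a higher ratio in GDE without overlap. For miR-34b the ratio was -2.18, -1.60 and -1.94 in GDE and -2.12, -2.69 and -2.06 in Control, and the groups overlapped. Its difference was 0.39 (SE 0.26; limma, adjusted p = 0.761), and 0.18 without Control replicate 2 or 0.23 without GDE replicate 2. For miR-34a the difference was 0.08 (SE 0.29; limma, adjusted p = 0.977), and -0.22 without Control replicate 1 or 0.34 without Control replicate 3. No hairpin of the 155 passed the adjusted threshold in limma (0%), and 9 had an unadjusted p under 0.05, none of them these 3. So no arm ratio of the family passed the threshold.

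**Figure D4:**
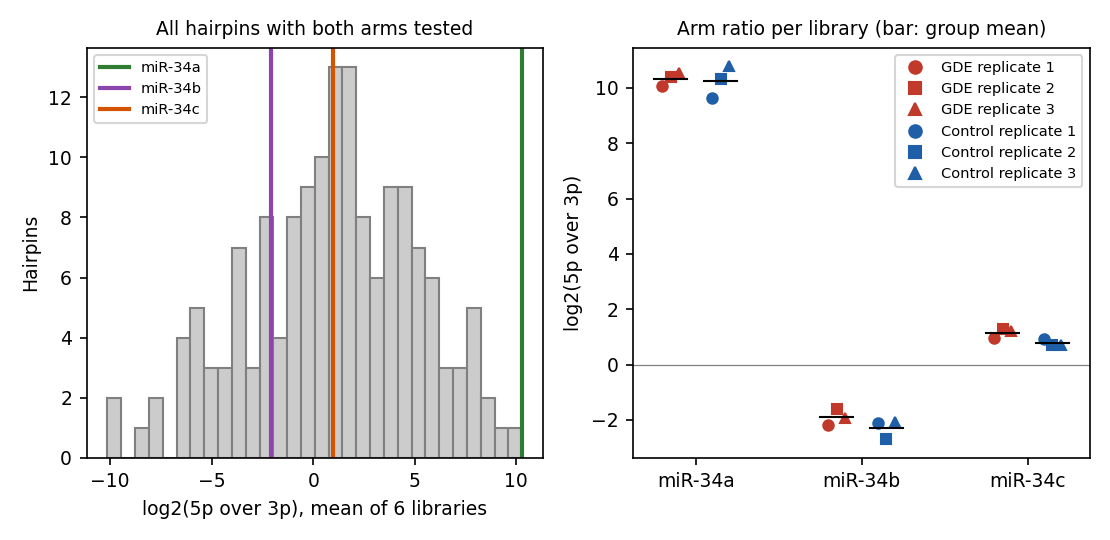
Left, the mean log2 ratio of 5p over 3p for 155 hairpins, with coloured lines for miR-34a, miR-34b and miR-34c. Right, the same ratio in each library (GDE red, Control blue, bar at the group mean, n = 3), where miR-34a lies near 10, miR-34b below 0 and miR-34c above 0 in all libraries.

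The NSC label was compared with miRNAs of neural and other cells. The 8 miRNAs of the neural list were all tested, with miR-9-5p, a miRNA of neural progenitors, at 8154 to 8831 RPM. Others of the list were far lower. Over 6 libraries miR-124-3p had a mean of 234 RPM, miR-338-3p of 209 RPM and miR-219a-5p of 6.53 RPM. The log2 fold was positive for 3 and negative for 5 of the neural list (median -0.008, with 0 at an unadjusted p under 0.05). Lists of other cell types had lower sums than the neural list, though single miRNAs such as miR-126a-3p (mean 303 RPM) exceeded some neural ones. Most tested members of these other lists had a positive log2 fold of GDE over Control. The leukocyte and microglia list had a summed level of 409 to 573 RPM over the GDE and 223 to 370 RPM over the Control libraries, and the red cell list to 73.9 to 93.6 and 35.0 to 69.1 RPM. For both lists every GDE library lay above every Control library, as held for 4.62% of all tested miRNAs taken singly. The endothelial and mural list summed to 340 to 559 and 316 to 409 RPM. The log2 fold was positive for 4 of 5 tested leukocyte and microglia miRNAs (median 1.28, with 3 at an unadjusted p under 0.05). It was positive for 2 of 2 of the red cell list (median 0.52, with 1) and for 4 of 4 of the endothelial and mural list (median 0.33, with 1). Of these lists, 0 miRNAs passed the adjusted threshold in limma. Over all tested miRNAs 61.2% of the folds were negative, and 4.01% were higher in GDE at an unadjusted p under 0.05. Within the red cell list, miR-451a had a log2 fold of 1.00 and miR-486a-5p of 0.05. The lists were chosen with earlier results of these data known, so these counts support nothing. The part of such cells in the differences of the members was not tested. In a bulk sample, fewer cells of a type and less RNA per cell cannot be told apart.

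For the cilia-linked members, the choroid plexus and ependymal list matters most. It held 16 miRNAs, of which 11 were in the table and 8 were tested, miR-449a-5p among them. All 8 tested had a positive log2 fold, with a median of 1.15 beside -0.07 over all tested miRNAs. At an adjusted p under 0.05 in limma there were 0, and at an unadjusted p under 0.05 there were 5. These counts describe the list and support nothing, since it was chosen with earlier results of these data known and low members such as miR-448-3p passed the filter mainly through GDE, where they were higher (3.92, 1.52 and 10.3 RPM, against 0.332, 0.807 and 1.87 RPM in Control). miR-204-5p, the most abundant miRNA of the list and one typical of choroid plexus, was at 688, 385 and 974 RPM in GDE and at 155, 325 and 519 RPM in Control. The groups overlapped. Its log2 fold came to 1.10 (SE 0.47; adjusted p = 0.561 in limma). miR-1298-5p was at 55.3, 17.1 and 131 RPM against 5.32, 10.5 and 29.6 RPM (log2 fold 1.97, SE 0.78; limma, adjusted p = 0.561). Of the 11 in the table, 3 stayed under 1 RPM in every library, among them miR-449c-5p.

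Without miR-449a-5p the list summed to 766, 412 and 1159 RPM in GDE and to 164, 343 and 562 RPM in Control. Most of this sum was miR-204-5p in every library (688, 385 and 974 RPM, and 155, 325 and 519 RPM). Its order over the libraries is thus largely that of 1 miRNA. miR-449a-5p ordered the libraries as this sum did, but for GDE replicates 1 and 3, which changed places at the top. The arms of miR-34b and miR-34c did not follow it. Control replicate 1 was the lowest library for the sum and the highest for all 4 arms, and GDE replicate 3 was the highest for the sum and the lowest for miR-34b-3p, miR-34c-5p and miR-34c-3p. The part of these cells in the differences of the members was not tested.

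**Figure D5:**
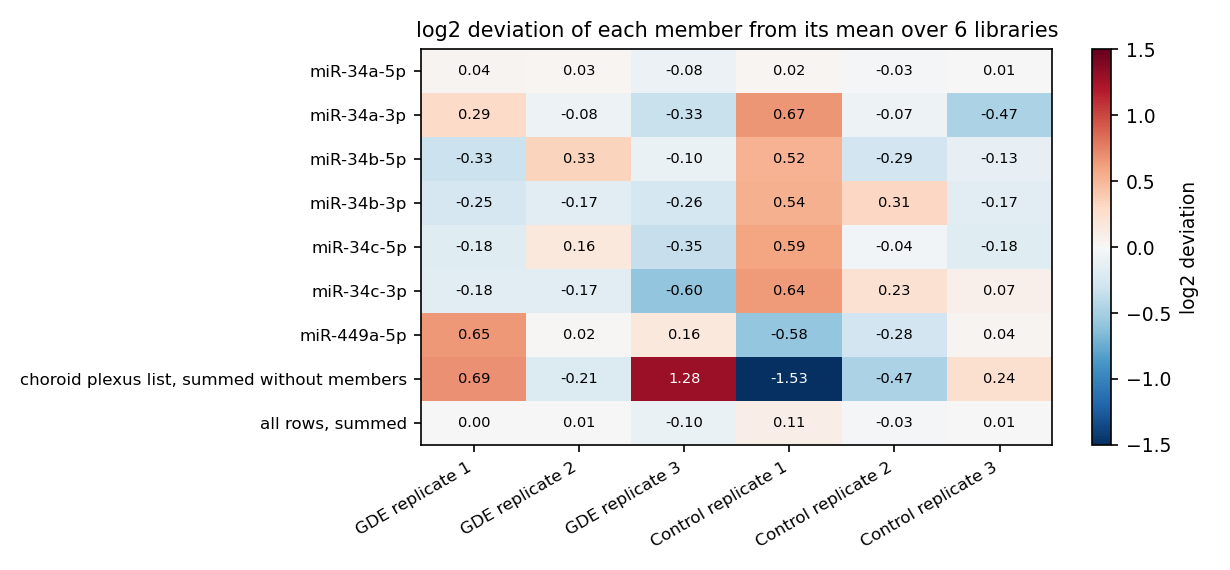
Deviation of log2(RPM + 1) from the mean of 6 libraries for the 7 members, the summed choroid plexus list without members and the sum of all rows, by library (red higher, blue lower, value in each cell). Control replicate 1 is at 0.52 to 0.64 for the arms of miR-34b and miR-34c, at -0.58 for miR-449a-5p and at -1.53 for the choroid plexus list. The sum of that list is mostly miR-204-5p.

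The p53-linked list held 16 other miRNAs, chosen as linked to p53, whether induced by it or known to act on it. Of these, 14 were in the table and 13 were tested. Since the list mixes different links, its pooled direction cannot be read as a change in p53 activity. The log2 fold was positive for 4 and negative for 9 of the tested miRNAs, the median being -0.15, and 0 passed the adjusted threshold in limma. Over all tested miRNAs 61.2% of the folds were negative and 8.63% had an unadjusted p under 0.05, so the list lay near both shares. Only miR-145a-5p of the list had such a p, with 4.84 ± 0.606 RPM in the GDE and 2.77 ± 0.418 RPM in the Control libraries (SD, n = 3 each; log2 fold 0.63, SE 0.19; limma, adjusted p = 0.551). It is also a miRNA of mural cells and is on that list too. The most abundant of the list lay close together between the groups. miR-16-5p, which restrains the cell cycle, was at 7280 ± 256 and 7535 ± 548 RPM, miR-22-3p at 7409 ± 336 and 7357 ± 266 RPM, and miR-15a-5p at 2507 ± 99.9 and 2551 ± 488 RPM (SD, n = 3 each). miR-16-5p and miR-22-3p are above 5000 RPM, where the spread was narrow for every miRNA.

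The other miRNAs most like the members over the 6 libraries were taken from 307 named miRNAs of at least 10 RPM with distinct values, as a description. For the mean of the 4 arms of miR-34b and miR-34c they were miR-103-3p (Pearson r 0.979, Spearman rho 1), miR-30c-1-3p (r 0.975, rho 1) and miR-181d-5p (r 0.962, rho 0.943). miR-103-3p was at 593, 686 and 555 RPM in GDE and at 897, 736 and 671 RPM in Control, and like the 4 arms it was highest in Control replicate 1. It was lowest in GDE replicate 3, as were these arms except miR-34b-5p, which was lowest in GDE replicate 1. For miR-34a-5p they were miR-30a-5p (r 0.983, rho 0.886), miR-185-5p (r 0.967, rho 0.829) and miR-3074-2-3p (r 0.949, rho 0.943). miR-30a-5p was at 582, 585 and 395 RPM in GDE and at 525, 452 and 532 RPM in Control. GDE replicate 3 was the lowest library for it and for miR-34a-5p, though by far more for miR-30a-5p. All of these values share their libraries and the scaling to depth.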

How the data were processed

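Small RNA was sequenced from hippocampal NSCs, 3 libraries per group, with group and replicate number taken from the library titles. TRIzol was used for extraction and the MGIEasy Small RNA kit for the libraries, per the labels' protocols, and Bowtie2 and mm10 are named in the submitters' processing notes, without version or role. In the sources used here, how reads were trimmed, shared between miRNAs or collapsed is not given. The values deposited by the authors were read as RPM because of their steps, as the columns are named expression per the file headers. They were whole multiples of 0.0807 to 0.0851 RPM, and 100% of the nonzero values gave whole tags within 0.1 tags. That step puts the depth at about 11751000 to 12385000 tags per library, of which 2927136 to 3343808 are in the table. A count of 0 allows up to 3 tags, and such limits cover counting error only, since PCR reads are not independent molecules.

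The main test was limma 3.58.1 (R 4.3.3) with a trend on log2(RPM + 1), two-sided, over the 649 miRNAs that reached 1 RPM in 3 libraries, with Benjamini-Hochberg adjustment and a threshold of 0.05. Folds on this scale understate the change of low miRNAs. Arm ratios were tested in limma over hairpins with both arms past the filter, as log2 ratios with 1 RPM added to each arm. Folds between arms are given without that addition. Single values were tested by exact permutation in Python 3.11.15. edgeR 4.0.16, DESeq2 1.42.0 and limma-voom were run on the recovered tags. Other pseudocounts (0.1 and 10), scalings, filters, fits without 1 library and a replicate block were also tried. The limma tests were also run on simulated data, with changes larger than the differences found for the members. No result here rests on that run. Libraries of 1 group differed by 39.1 to 139.4 in chi-square per degree of freedom, so none was counted as a repeat of another, which does not show that they are separate samples. Positions and gene overlaps are from GENCODE M21 (GRCm38, the assembly called mm10). Likeness was measured by Pearson's r, and the 3 highest were named. The members and lists were chosen with earlier results of these data known.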

Additional observations from a re-analysis of the deposited data

How the results depend on the processing

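No member passed the adjusted threshold under any alternative run. Of 213 alternative values over 15 results, 192 kept their direction and their side of the threshold, 18 changed sign and 3 were counts that moved by more than 1.5 times. The number of miRNAs past the threshold was 2 in limma, 1 with at least 10 RPM in 3 or more libraries, 5 in DESeq2 and 7 in DESeq2 with its own size factors, and 2 to 3 without 1 library. The 2 fits with the tools' own scaling, edgeR with TMM and DESeq2 with its size factors, were chosen after seeing the data, as were both ratios of miR-449a-5p.

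Signs changed for 5 results. The log2 fold of miR-34a-5p became 0.056 with each library scaled to the same sum, 0.10 with TMM scaling, 0.10 in edgeR with TMM and 0.090 in DESeq2 with its own size factors, and it was -0.027 to 0.038 without 1 library. That of miR-34b-5p became 0.036 with TMM scaling, 0.040 in edgeR with TMM and 0.037 in DESeq2 with its own size factors, and it was -0.25 to 0.18 without 1 library. For miR-34a-3p it was 0.0084 with TMM scaling and -0.34 to 0.23 without 1 library. The arm ratio of miR-34a differed by -0.22 to 0.34 without 1 library, and the log2 ratio of miR-34a-5p over miR-34b-5p and miR-34c-5p by -0.016 to 0.35. TMM scaling moved the median log2 fold of all tested miRNAs from -0.07 to 0.02 and the share of negative folds from 61.2% to 47.3%. Between edgeR with depth and edgeR with TMM it moved from -0.11 to 0.00 by rounding. The cause of the moves was not tested.

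miR-34b-3p, miR-34c-5p, miR-34c-3p and miR-449a-5p kept their sign under all 18 alternatives, with log2 folds of -0.65 to -0.30, -0.40 to -0.02, -0.75 to -0.46 and 0.37 to 0.71. Same-numbered libraries did not deviate together (correlations over tested miRNAs of -0.03, -0.12 and -0.03), so the numbers were not used as pairs. With a replicate block the log2 fold of miR-34c-3p stayed -0.63 (limma, adjusted p = 0.423; 0.168 to 0.822 over its alternatives) and 2 miRNAs passed over the table. miR-34a-3p, with 41 to 107 tags per library, and miR-449c-5p, with 1 to 7, are limited by depth.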
